A study of Mus musculus with 18 samples.

Results

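The genes described here were Htt, which encodes huntingtin, and 9 genes whose products bind huntingtin or its closest partners, namely Hap1, Hip1, Hip1r, Zdhhc17, Zdhhc13, Rasd2, Hypk, F8a and Bcr. They were taken by gene symbol from the 55421 genes of a count table of mouse striatum. All 10 were found, and all 10 were among the 20914 genes that had enough reads to be tested. The table held 5 wild type (WT) mice, 5 zQ175 mice, 3 CK2α'(+/-) mice and 5 zQ175:CK2α'(+/-) mice, with 1 library per mouse, all aged 12 to 14 months and given as C57BL/6. zQ175 mice are a knock-in model of Huntington's disease and carry 1 mutant and 1 normal copy of Htt. CK2α'(+/-) mice lack 1 of the 2 alleles of Csnk2a2, the gene of the CK2α' catalytic subunit of the kinase CK2, in every cell. Their line began on a mixed 129/SvEv and C57BL/6J background and was bred further with WT and zQ175 mice before the study. The zQ175:CK2α'(+/-) mice carry both changes, and no group received a drug. Because the knock-in and the lost CK2α' allele are present in all cells, no cell type was targeted, and bulk striatum cannot tell fewer cells of a type from less RNA per cell.

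Huntingtin is a large scaffold protein that links vesicles to the motors of axonal transport, with a polyglutamine stretch near its start that is lengthened in Huntington's disease. Its partners fall into a few kinds. HAP1 and HAP40 (the F8a product) connect it with motors and endosomes, HIP1 and HIP1R belong to clathrin-mediated endocytosis, ZDHHC17 and ZDHHC13 are palmitoyl transferases that act on it, HYPK is a chaperone-like protein that works with the NatA acetyltransferase, Rhes (the Rasd2 product) is a small GTPase found mainly in the projection neurons of the striatum, and BCR is a signalling protein that binds HAP1. The striatal projection neurons are the cells lost first in the disease.

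The zQ175 allele differs from the normal one in exon 1 of Htt, so the coding part of that exon is shown as it stands in the C57BL/6J reference (GRCm38, GENCODE, chr5:34761907-34762109, + strand, 5′ to 3′). The capitals mark its longest unbroken in-frame run of CAG codons, 4 of them, at codons 21 to 24. In the mutant allele exon 1 is a chimera of mouse and human sequence with a much longer CAG run and the proline-rich part of the human gene, and it is not shown.

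Htt exon 1, coding part: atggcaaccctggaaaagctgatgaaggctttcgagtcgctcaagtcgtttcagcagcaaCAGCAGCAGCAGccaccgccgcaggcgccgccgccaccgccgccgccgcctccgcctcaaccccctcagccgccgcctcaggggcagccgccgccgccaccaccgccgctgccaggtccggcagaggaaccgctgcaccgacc

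Exon 1 makes up 366 of the 24438 exonic bases on which Htt reads were counted, or 1.5%. The counts therefore give the sum of the normal and the mutant transcript, and the 2 alleles cannot be told apart in them.

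Rasd2 and Bcr were the members that fell with the zQ175 allele, and their promoters are shown because they fell together. The sequences are the 250 bases before the start of transcription (RefSeq, GRCm38.p6, + strand, 5′ to 3′), at chr8:75213694-75213943 for Rasd2 and chr10:75060646-75060895 for Bcr. The gene model used for counting starts Bcr earlier than RefSeq, at 75060592, so the Bcr stretch lies inside that model. Capitals mark the motif GGGCGG on either strand, the GC box bound by Sp1. In the Bcr sequence the first 2 matches overlap.

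Rasd2 promoter: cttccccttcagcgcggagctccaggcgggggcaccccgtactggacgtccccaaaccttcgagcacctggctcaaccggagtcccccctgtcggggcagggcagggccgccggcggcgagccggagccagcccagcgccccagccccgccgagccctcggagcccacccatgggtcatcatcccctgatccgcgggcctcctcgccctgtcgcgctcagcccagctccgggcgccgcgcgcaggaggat

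Bcr promoter: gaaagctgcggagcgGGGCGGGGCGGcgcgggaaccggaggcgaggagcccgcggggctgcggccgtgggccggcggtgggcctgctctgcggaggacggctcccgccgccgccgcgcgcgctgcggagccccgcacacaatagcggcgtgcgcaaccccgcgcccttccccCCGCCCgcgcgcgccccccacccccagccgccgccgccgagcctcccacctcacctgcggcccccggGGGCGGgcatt

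The Bcr sequence held 4 such matches and the Rasd2 sequence none, while 32.7% of all 32851 promoters of the same length held at least 1. Neither held TGACG, the core of the cAMP response element, found in 17.8% of all promoters, or TATAAA, found in 12.4%. Both were rich in G and C, with 75.2% in Rasd2 and 82.8% in Bcr, above 96.1% and 99.5% of all promoters. Of the members, 9 had a promoter sequence (12 sequences, since some had more than 1). GGGCGG was found in 6 of the 12 sequences, which belonged to 5 of the 9 members. The shares over all promoters are per sequence and were not matched for G and C content.

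Total counts ranged from 13612381 to 22702547 per library, with a median of 18005044. Csnk2a2 followed the labels, with 29.4 to 37.5 CPM (a gene's reads relative to those of the whole library, TMM-scaled) in the 10 mice that kept both CK2α' alleles and 14.7 to 19.9 CPM in the 8 that kept 1. Several libraries stood apart in the markers of other tissue. The summed CPM of 5 choroid plexus markers reached 2046 in WT mouse 1, 956 in CK2α'(+/-) mouse 1 and 3046 in zQ175:CK2α'(+/-) mouse 2, against medians of 5.97 to 13.9 in the groups. The 4 thalamic markers reached 861 CPM in zQ175 mouse 1, and 6 cortical excitatory neuron markers 369.9 CPM in zQ175 mouse 5. The cortical sum was 88.6 CPM or more in all zQ175 mice and 83.1 CPM or less in all WT mice. zQ175 mouse 3 had 47 CPM of Xist along with 197 CPM over 4 Y-linked genes. Fits without each single mouse and a fit without zQ175 mice 1, 3 and 5 were run. No marker gene of the 10 marker lists was at 0 in all mice, and the 11 striatal projection neuron markers summed to 1809 CPM or more in every library.

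Levels are compared between genes as TPM, which divides counts by exon length. Over the 18 mice Rasd2 had the highest mean level, 146 TPM, above that of 99.1% of the genes tested, and Hypk the lowest, 1.37 TPM, so the members spanned 107-fold. Bcr followed at 55.4 TPM and Hap1 at 49.5 TPM. Hip1r at 18.6 and Zdhhc17 at 18.5 TPM formed the middle, with Htt itself at 9.49, Zdhhc13 at 7.93 and Hip1 at 7.68 TPM. F8a stood at 2.66 TPM. Of the 9 pairs of neighbours in this order, 3 did not overlap in their ranges over mice, namely Hap1 above Hip1r, Zdhhc17 above Htt, and Hip1 above F8a. Rasd2 was above Bcr in all 18 mice although the ranges over mice overlapped, and Bcr was above Hap1 in 11 mice. The exonic length of Htt sums every annotated transcript and is 1.85 times the 13215 bases of its coding transcript, so its TPM is low by about that factor if the coding transcript prevails. The exonic length of Hypk is summed in the same way and takes up 5278 of the 5383 bases that the gene spans. The last place of Hypk and the 107-fold span therefore depend on that length.

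With the zQ175 allele's effect estimated over both CK2α' backgrounds, Rasd2 fell by 32.8% and Bcr fell by 27.2%. In the edgeR fit to all 18 mice the other 8 members did not pass in that comparison, and none of the 10 passed in any other. The zQ175 effect was fitted with edgeR's quasi-likelihood test on all 18 mice, with adjusted p over all genes tested and a threshold of 0.1. Of the 20914 genes, 4.9% passed in the pooled comparison and 2.78% were lower, against 2 of the 10 members, both lower. The median log2 fold change was -0.13 over the members and 0.01 over all genes, and 8 of the 10 members had a value below 0.

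Rasd2 (ENSMUSG00000034472, GRCm38 chromosome 8, 75213944 to 75224113, + strand) encodes Rhes. In WT mice it measured 341, 514, 338, 256 and 232 CPM. In zQ175 mice it measured 151, 255, 244, 301 and 232 CPM. CK2α'(+/-) mice had 368, 404 and 509 CPM. zQ175:CK2α'(+/-) mice had 311, 260.4, 259.9, 307 and 229.6 CPM. All 3 CK2α'(+/-) mice lay above all zQ175:CK2α'(+/-) mice (8.34% of all genes did not overlap there, in either direction), whereas zQ175 and WT mice overlapped, since WT mice 4 and 5 lay within the zQ175 range. The pooled log2 fold change of Rasd2 was -0.57 (SE 0.138, 95% interval -0.86 to -0.29, edgeR adjusted p = 0.0299). The exact two-sided permutation test of the 10 carriers of the zQ175 allele against the 8 other mice gave p = 0.00654 for Rasd2. The Rasd2 call was lost when CK2α'(+/-) mouse 3 was left out (-0.50, edgeR adjusted p = 0.123). Rasd2 lies on the chromosome of the targeted Csnk2a2, 20.2 megabases from it.

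Bcr (ENSMUSG00000009681, chromosome 10, 75060592 to 75184921, + strand) showed the same order of groups. Its levels were 363, 475, 335, 293 and 241 CPM in WT mice and 189, 276, 274, 265 and 247 CPM in zQ175 mice. CK2α'(+/-) mice had 359, 344 and 406 CPM, and zQ175:CK2α'(+/-) mice 296, 255, 269.5, 276 and 239 CPM. The CK2α'(+/-) mice again lay above every zQ175:CK2α'(+/-) mouse, beside the same 8.34% of all genes, and WT mouse 5 was the one WT mouse within the zQ175 range. The pooled log2 fold change of Bcr was -0.46 (SE 0.102, 95% interval -0.67 to -0.25, edgeR adjusted p = 0.0212; exact two-sided permutation p = 0.00103). Bcr passed without each single mouse in turn, with values from -0.51 to -0.40. In a fit that left out zQ175 mice 1, 3 and 5, the ones with the marked thalamic, cortical or Xist counts, Rasd2 had -0.46 (edgeR adjusted p = 0.141) and Bcr -0.40 (edgeR adjusted p = 0.101), and neither passed. That fit kept only 2 zQ175 mice, and 1.86% of all genes passed in it, against 4.9% with all mice. The libraries with high choroid plexus markers stayed in. It cannot tell the loss of mice from the loss of other tissue.

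**Figure D1:**
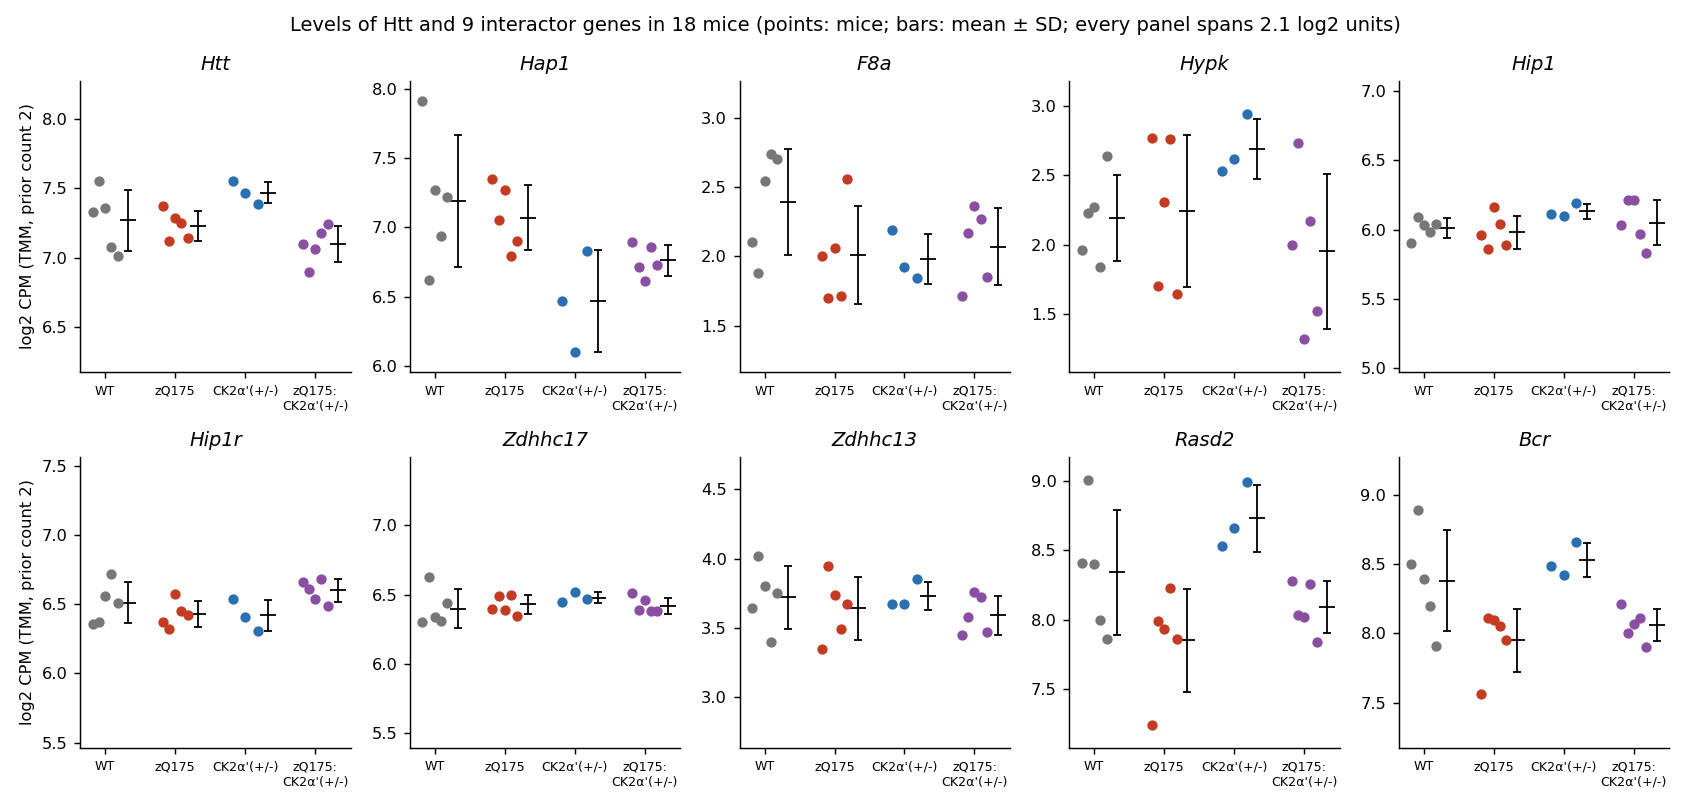
Level of each of the 10 members in 18 mice, in log2 CPM after TMM scaling with a prior count of 2, by genotype. Each point is a mouse and each bar the group mean ± SD, and every panel spans the same log2 range. Htt, Rasd2 and Bcr show all 3 CK2α'(+/-) mice above all 5 zQ175:CK2α'(+/-) mice, where 8.34% of all genes did not overlap, in either direction. Most other members overlap between all groups.

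The single comparisons behind the pooled effect gave values below 0 for both genes. Between zQ175 and WT mice Rasd2 had a log2 fold change of -0.51 (SE 0.182, edgeR adjusted p = 0.205) and Bcr -0.45 (SE 0.135, edgeR adjusted p = 0.136), and no member passed, where 1.1% of all genes did. The Rasd2 value there was -0.32 without WT mouse 2 and -0.28 without zQ175 mice 1, 3 and 5. Between zQ175:CK2α'(+/-) and CK2α'(+/-) mice Rasd2 had -0.64 (SE 0.206, edgeR adjusted p = 0.255) and Bcr -0.47 (SE 0.153, edgeR adjusted p = 0.265), and again no member passed, against 0.593% of all genes. At an unadjusted p under 0.05 the counts were 2 and 4 of 10 members in these comparisons, against 13.9% and 9.19% of all genes. DESeq2 called Bcr in the first (adjusted p = 0.0438, with 5.26% of all genes called) and Htt in the second (adjusted p = 0.0908, with 1.47%). Without the filter on low counts, edgeR called Rasd2 and Bcr in both (1.2% and 0.79% of all genes), and with only the 2 groups of the second in the fit it called Htt, Rasd2 and Bcr (2.43%). The interaction of the zQ175 allele with the CK2α' allele, which asks whether the effect differed between the backgrounds, was -0.13 (95% interval -0.71 to 0.44) for Rasd2 and -0.02 (-0.44 to 0.41) for Bcr. Its edgeR adjusted p was 0.988 for Rasd2 and 1 for Bcr.

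**Figure D2:**
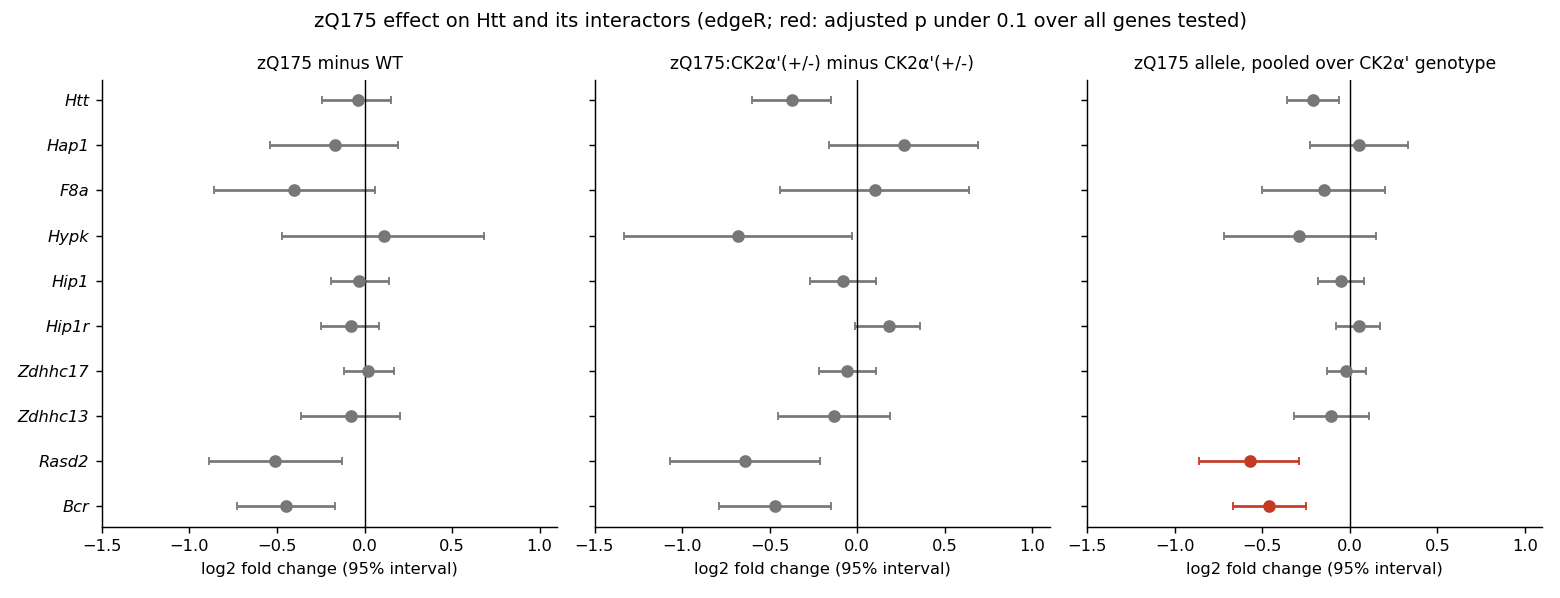
Log2 fold change with its 95% interval from edgeR for the 10 members in zQ175 minus WT, zQ175:CK2α'(+/-) minus CK2α'(+/-), and both combined. Red points passed an adjusted p of 0.1 over all genes tested, which only Rasd2 and Bcr did, in the combined comparison.

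The levels of Rasd2 and Bcr ran with the summed RNA of projection neuron marker genes. Of 11 markers of striatal projection neurons (among them the dopamine receptor genes Drd1 and Drd2, the adenosine receptor gene Adora2a and the phosphodiesterase gene Pde10a), 7 fell in the pooled comparison and none rose, with a median log2 fold change of -0.70. Adora2a had the smallest p of them (-1.17, SE 0.184, edgeR adjusted p = 0.00224). Their summed level was 3189 to 7412 CPM in WT mice, 1809 to 3594 CPM in zQ175 mice, 5269 to 7240 CPM in CK2α'(+/-) mice and 2996 to 4172 CPM in zQ175:CK2α'(+/-) mice. WT mouse 2 and CK2α'(+/-) mouse 3, with the 2 highest sums, were also the 2 highest in Rasd2 and in Bcr, and zQ175 mouse 1, with the lowest sum, was the lowest in both. Over the 18 mice the correlation with this sum, in log2, was 0.99 for Rasd2 (Spearman's rho 0.98) and 0.97 for Bcr (rho 0.91). Without the 2 mice farthest from the median it was 0.97 and 0.95, and after each genotype's mean was removed it was 0.98 and 0.95. Rasd2 and Bcr correlated with each other at 0.95 (rho 0.91, 0.94 within genotypes). These values are descriptions, since all genes of a mouse share its library and its dissection.

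When the summed marker level of each mouse was entered in the fit as a covariate, the pooled log2 fold change of Rasd2 was 0.02 (SE 0.0638, 95% interval -0.11 to 0.15, edgeR adjusted p = 0.939) and that of Bcr -0.05 (SE 0.065, 95% interval -0.18 to 0.09, edgeR adjusted p = 0.816). No member passed in this fit, which was added after the values were seen. The marker level is itself lower in zQ175 mice, so this fit asks whether Rasd2 and Bcr differed beyond the markers, not whether they differed. Per unit of marker, the log2 ratio of Rasd2 to the sum was -3.82 ± 0.0977 for WT (SD, n = 5) and -3.69 ± 0.103 for zQ175 mice (SD, n = 5). It was -3.79 ± 0.0695 for CK2α'(+/-) (SD, n = 3) and -3.74 ± 0.0514 for zQ175:CK2α'(+/-) mice (SD, n = 5). The ratio of Bcr was -3.78 ± 0.177 for WT (SD, n = 5), -3.58 ± 0.197 for zQ175 (SD, n = 5), -3.99 ± 0.147 for CK2α'(+/-) (SD, n = 3) and -3.77 ± 0.116 for zQ175:CK2α'(+/-) mice (SD, n = 5). Markers of other cell types moved too, as 3 of 6 oligodendrocyte markers fell in the pooled comparison (median -0.30) and 4 between zQ175 and WT mice (median -0.50), and the correlation of Rasd2 with their sum was 0.64, or 0.24 within genotypes. For 6 astrocyte markers it was 0.84 and 0.76, and 1 of these, Aldh1l1, fell. Of the 6 cortical markers 1, Nrn1, rose (median of the list 0.79), and Rasd2 correlated with their sum at -0.63, or -0.42 within genotypes. Between zQ175 and WT mice all 6 had values above 0 (median 1.44), and Tbr1 rose (1.27, SE 0.322, edgeR adjusted p = 0.0902). Between zQ175:CK2α'(+/-) and CK2α'(+/-) mice the cortical median was -0.27, and none passed. Of the 4 thalamic markers none passed (median 0.17), and the correlation of Rasd2 with their sum was -0.49, or -0.70 within genotypes. That pooled median joins opposite shifts, and no thalamic marker passed in either comparison behind it. All 4 had values above 0 between zQ175 and WT mice (median 0.91). All 4 had values below 0 between zQ175:CK2α'(+/-) and CK2α'(+/-) mice (median -0.66). All 4 interneuron markers had values below 0 (median -0.38) and none passed, and their sum correlated with Rasd2 and with Bcr at 0.61 (0.30 and 0.28 within genotypes). Of the 5 septal and hypothalamic markers tested, Trh fell (-0.86, SE 0.235, edgeR adjusted p = 0.0561), and Rasd2 correlated with the sum of that list at -0.45, or -0.69 within genotypes. All 6 microglia markers had values below 0 between zQ175 and WT mice (median -0.20), where C1qa fell (-0.64, SE 0.15, edgeR adjusted p = 0.0707). None of them passed in the pooled comparison (median -0.06), and the correlation of Rasd2 with their sum was 0.42, or 0.32 within genotypes. The 5 choroid plexus markers, with pooled values below 0 and a median of -1.70, and the 4 endothelial markers, with a median of -0.15, did not pass, and Rasd2 correlated with their sums at 0.15 and 0.20. The choroid plexus median was -4.03 between zQ175 and WT mice and 0.75 between zQ175:CK2α'(+/-) and CK2α'(+/-) mice, where none passed either. The part of these markers in the Rasd2 and Bcr results was not tested.

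**Figure D3:**
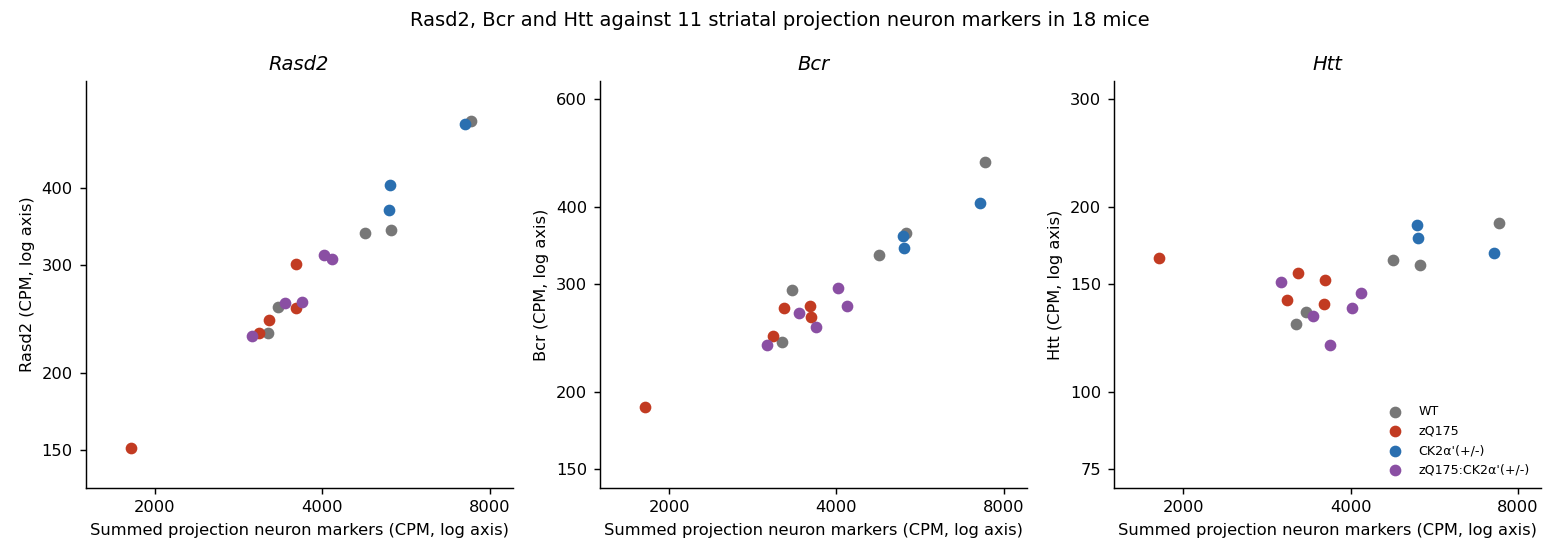
Levels of Rasd2, Bcr and Htt (CPM, log axis) against the summed level of 11 striatal projection neuron markers (CPM, log axis), 1 point per mouse, coloured by genotype. Rasd2 and Bcr lie close to a line over all 18 mice, whichever the genotype, with correlations of 0.99 and 0.97, and Htt does not, with 0.50.

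**Figure D4:**
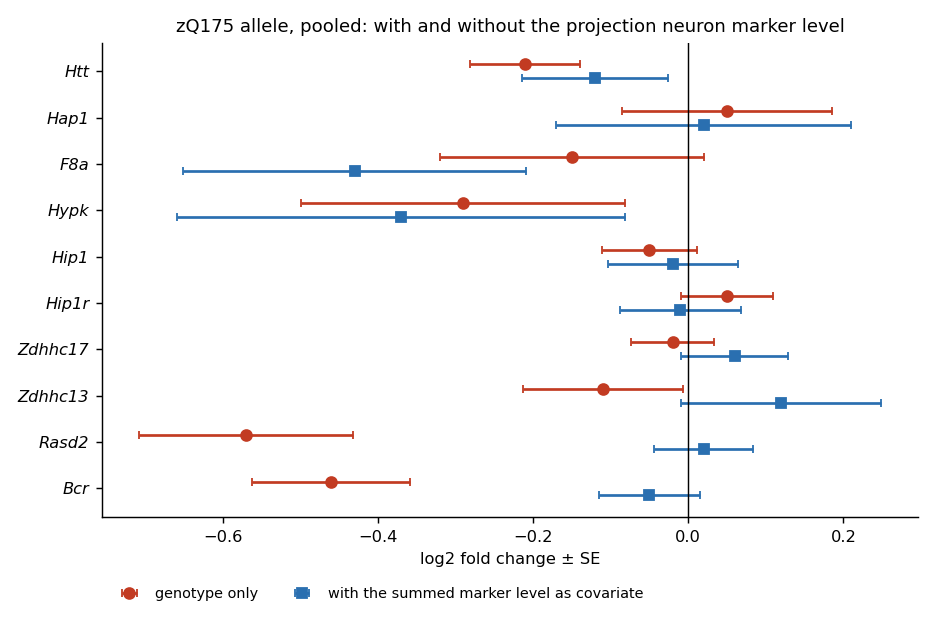
Pooled log2 fold change ± SE of the 10 members for the zQ175 allele, with genotype alone (red circles) and with the summed projection neuron marker level as a covariate (blue squares). Rasd2 moves from -0.57 to 0.02 and Bcr from -0.46 to -0.05.

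Of 10205 other genes with a mean of at least 3 log2 CPM, the 3 most like Rasd2 over the 18 mice were Adcy5, Syndig1l and Pde10a, each with a correlation of 0.98. Those most like Bcr were Adcy5, Pde1b and Penk, each with 0.97. Adcy5 encodes the main adenylyl cyclase of striatal projection neurons, and Pde10a and Pde1b encode phosphodiesterases that are abundant there. Penk encodes the enkephalin precursor.

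Htt (ENSMUSG00000029104, chromosome 5, 34761740 to 34912534, + strand) did not pass in any comparison of the edgeR fit to all mice. Its levels were 161, 188, 164, 135 and 129 CPM in WT mice and 165, 139, 156, 152 and 141 CPM in zQ175 mice. In CK2α'(+/-) mice they were 187, 178 and 168 CPM, and in zQ175:CK2α'(+/-) mice 137, 119, 133, 145 and 151 CPM. The WT and zQ175 mice overlapped, whereas every zQ175:CK2α'(+/-) mouse was below every CK2α'(+/-) mouse. Between zQ175 and WT mice the log2 fold change of Htt was -0.04 (SE 0.0932, 95% interval -0.24 to 0.15, edgeR adjusted p = 0.876), and without WT mouse 2 it was 0.02. Between zQ175:CK2α'(+/-) and CK2α'(+/-) mice it was -0.37 (SE 0.107, edgeR adjusted p = 0.168). For that pair Htt passed with DESeq2 (adjusted p = 0.0908, with 1.47% of all genes). It also passed in edgeR with only those groups in the fit (adjusted p = 0.0442, with 2.43%). The exact permutation test of that pair gave p = 0.0179, the smallest that 5 mice against 3 allow, and 8.34% of all genes did not overlap between these groups. Pooled over both backgrounds it was -0.21 (SE 0.0709, 95% interval -0.36 to -0.06), with an edgeR adjusted p of 0.125, DESeq2 adjusted p of 0.0829 (8.92% of all genes passed by DESeq2) and exact permutation p of 0.0388. The edgeR value passed when WT mouse 4, WT mouse 5 or zQ175 mouse 1 was left out, and was 0.0587 without WT mouse 5. The interaction had a value of -0.33 for Htt (SE 0.142, unadjusted p = 0.0305, edgeR adjusted p = 0.916), so a difference of the zQ175 effect between backgrounds did not pass.

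Htt followed the projection neuron markers less closely than Rasd2 and Bcr, with a correlation of 0.50 over the 18 mice and 0.32 within genotypes. Its correlation was larger with the sums of the endothelial markers (0.64, or 0.51 within genotypes) and of the astrocyte markers (0.58, or 0.41). The value for the projection neuron markers was 0.98 among the 5 WT mice alone and -0.72 among the 5 zQ175 mice, numbers too small for more than a description. The genes most like Htt were Shank3, which encodes a scaffold of the postsynaptic density, at 0.89, and Nhsl2 and Hlf, both at 0.87. With the marker level as a covariate the pooled log2 fold change of Htt was -0.12 (SE 0.0943, edgeR adjusted p = 0.604).

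Hap1 (ENSMUSG00000006930, chromosome 11, 100347327 to 100356128, - strand) was the member with the smallest unadjusted p between CK2α'(+/-) and WT mice. It measured 240.5, 98.1, 155, 123 and 149 CPM in WT mice and 162, 133, 154, 111 and 119 CPM in zQ175 mice. CK2α'(+/-) mice had 88.8, 68.3 and 114 CPM, and zQ175:CK2α'(+/-) mice 118, 105, 97.5, 116 and 106 CPM. The 2 lowest values of the 18 belonged to CK2α'(+/-) mice, the highest to WT mouse 1, which also had choroid plexus transcripts, and the groups overlapped. Between CK2α'(+/-) and WT mice the log2 fold change of Hap1 was -0.76 (SE 0.208, unadjusted p = 0.00144, edgeR adjusted p = 0.787), and it was -0.54 without WT mouse 1. In this comparison 3 of the 20914 genes passed (0.0143%), none of them a member, and Hap1 ranked 38 by p. Without the filter on low counts Hap1 passed (edgeR adjusted p = 0.0537), as did 0.0506% of all genes. Between zQ175:CK2α'(+/-) and zQ175 mice it was -0.32 (SE 0.176, edgeR adjusted p = 0.83), or -0.16 without zQ175 mice 1, 3 and 5, where 0.0143% of genes and no member passed. An exact permutation test of the 8 mice with 1 CK2α' allele against the 10 with both, added after the values were seen, gave a difference of -0.48 in log2 CPM with p = 0.00343. Of its correlations with the sums of the 10 marker lists over the 18 mice, the largest in size was that with the astrocyte markers, -0.58 (-0.51 within genotypes).

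F8a (ENSMUSG00000078317, chromosome X, 73228291 to 73230795, + strand), the gene of HAP40, lay between 3.13 and 6.57 CPM in all mice, with as few as 48 reads in a library. Its log2 fold change between zQ175 and WT mice was -0.40 (SE 0.222, edgeR adjusted p = 0.44), and pooled it was -0.15 (95% interval -0.50 to 0.20). These values of F8a were -0.66 and -0.43 with the marker covariate, and -0.75 and -0.32 without zQ175 mice 1, 3 and 5, and none passed. Hypk (ENSMUSG00000027245, chromosome 2, 121453290 to 121458672, + strand) lay between 2.39 and 7.54 CPM, with as few as 39 reads. Of its exonic bases, 35.9% are shared with Serf2 on the same strand and 29.9% with Serinc4 on the other, so its reads are uncertain. Hypk measured 5.66, 6.04 and 7.54 CPM in CK2α'(+/-) mice and 3.88, 6.53, 2.39, 4.41 and 2.76 CPM in zQ175:CK2α'(+/-) mice, of which 1 overlapped the former. The log2 fold change of that pair was -0.68 (SE 0.312, edgeR adjusted p = 0.51). The pooled interval of Hypk, -0.72 to 0.15, held both 0 and the value of Rasd2.

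Neither gene of the endocytic pair passed in any comparison of the edgeR fit to all mice. Hip1 (ENSMUSG00000039959, chromosome 5, 135406531 to 135545120, - strand) had a pooled log2 fold change of -0.05 (SE 0.0614, 95% interval -0.18 to 0.08). It measured 69.1, 68.4 and 73.1 CPM in CK2α'(+/-) mice and 59.7, 67.9, 65.4, 63.2 and 65.5 CPM in WT mice, without overlap, as did 3.2% of all genes. The exact permutation p of this difference was 0.0536. Hip1r (ENSMUSG00000000915, chromosome 5, 123973628 to 124005558, + strand) shares 12.5% of its exonic bases with Vps37b on the other strand. It measured 101, 97.3, 92.8, 103 and 89.9 CPM in zQ175:CK2α'(+/-) mice and 82.4, 79.8, 95, 87.2 and 85.7 CPM in zQ175 mice. The log2 fold change of that pair was 0.17 (SE 0.0782, edgeR adjusted p = 0.765, exact permutation p = 0.0238). The interaction had a value of 0.26 for Hip1r (SE 0.12, edgeR unadjusted p = 0.0415 and adjusted p = 0.916).

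The palmitoyl transferase Zdhhc17 (ENSMUSG00000035798, chromosome 10, 110941780 to 111010140, - strand) had the narrowest pooled interval of the members, -0.13 to 0.09 around a log2 fold change of -0.02. A change of the size of Rasd2 lay outside that interval. Its levels spanned 78.6 to 98.8 CPM over all mice. Zdhhc13 (ENSMUSG00000030471, chromosome 7, 48789003 to 48827440, + strand) spanned 10.1 to 16.1 CPM, with a pooled value of -0.11 (95% interval -0.32 to 0.11). Between zQ175:CK2α'(+/-) and WT mice no member passed either (0.0143% of genes did), and the lowest unadjusted p belonged to Hap1 (-0.50, SE 0.176, edgeR adjusted p = 0.4), which had -0.29 without WT mouse 1. In the interaction test 0.00478% of genes and no member passed.

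Over 7 pairings of groups with 10 members each, 70 exact permutation tests were run, of which 9 had an unadjusted p under 0.05, where 8.39% of the same tests over all genes did. The pairing by CK2α' allele was added after the values were seen, and the pairings share mice. In 4 of the 70 the groups did not overlap, namely Htt, Rasd2 and Bcr between zQ175:CK2α'(+/-) and CK2α'(+/-) mice (8.34% of all genes did not overlap there) and Hip1 between CK2α'(+/-) and WT mice (3.2%).

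The genes that work with these proteins were followed in 9 lists with 92 genes, of which 88 were tested. In the pooled comparison 4 rose and 1 fell, where 4.9% of all genes passed, and the medians of the lists lay between -0.01 and 0.09 against 0.01 over all genes. Of 18 other DHHC acyltransferases, the family of Zdhhc17 and Zdhhc13, Zdhhc23 rose by 0.69 on the log2 scale (SE 0.166, edgeR adjusted p = 0.0304) and Zdhhc5 by 0.22 (edgeR adjusted p = 0.0991). Zdhhc5 passed in 3 of 25 alternative fits. Zdhhc23 measured 12.7, 9.01 and 8.68 CPM in CK2α'(+/-) mice and 17.2, 17.6, 18.6, 22.9 and 14.3 CPM in zQ175:CK2α'(+/-) mice. WT mice had 12.2, 17.5, 8.58, 15.9 and 13 CPM, and zQ175 mice 10.5, 18.4, 25.7, 18.5 and 25.2 CPM. zQ175 mouse 1 was low in Zdhhc23, while the other zQ175 mice lay above every WT mouse. Zdhhc23 passed in 24 of 25 alternative fits, among them the fit with the marker covariate, where its log2 fold change was 0.92 (SE 0.21, edgeR adjusted p = 0.0537), and was lost without CK2α'(+/-) mouse 3.

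Of 16 transport partners, Dync1h1, the heavy chain of cytoplasmic dynein, rose by 0.19 (SE 0.0549, edgeR adjusted p = 0.0763). It passed in 10 of 25 alternative fits, and the marker covariate gave it 0.10 (edgeR adjusted p = 0.529). Of 16 other huntingtin-binding proteins, Crebbp, a transcriptional coactivator and acetyltransferase, rose by 0.20 (SE 0.0479, edgeR adjusted p = 0.0294). It passed in 21 of 25, but not with the marker covariate (0.21, edgeR adjusted p = 0.11). Crebbp spanned 303 to 326 CPM in zQ175 and 313 to 338 CPM in zQ175:CK2α'(+/-) mice, and 255 to 303 CPM in WT and 266 to 293 CPM in CK2α'(+/-) mice. Of the 3 RAB5 genes, whose products bind HAP40 on early endosomes, Rab5c fell by 0.22 (SE 0.0587, edgeR adjusted p = 0.055). It passed in 20 of 25, but not with the marker covariate (-0.22, edgeR adjusted p = 0.193). Rab5c measured 46.9, 43.8, 45.6, 45.3 and 42.4 CPM in zQ175 mice and 55.9, 56, 55.3, 53.7 and 63.8 CPM in WT mice, without overlap, as in 2.44% of all genes. Its log2 fold change between these groups was -0.35 (SE 0.0773, edgeR adjusted p = 0.0594). On the other background Rab5c measured 54.3, 46.7, 54.6, 57.7 and 50.2 CPM in zQ175:CK2α'(+/-) mice and 51.4, 54.6 and 62 CPM in CK2α'(+/-) mice. These groups overlapped, with a log2 fold change of -0.09 (SE 0.0888, edgeR adjusted p = 0.852), and the interaction was 0.26 (SE 0.118, edgeR adjusted p = 0.916). Clta, the clathrin light chain that HIP1 and HIP1R bind, was the other partner gene that fell between zQ175 and WT mice (-0.33, SE 0.0846, edgeR adjusted p = 0.0902), and it passed in 8 of 26 alternative fits. None of the 5 ZDHHC17 substrates, 3 NatA partners, 9 Rhes partners or 5 BCR partners passed in the pooled comparison. The gene with the smallest p was Dlg4 (-0.20, edgeR adjusted p = 0.141) among the substrates and Naa15 (0.12, edgeR adjusted p = 0.303) among the NatA partners. It was Mtor (0.13, edgeR adjusted p = 0.199) among the Rhes partners and Rhoa (-0.06, edgeR adjusted p = 0.564) among the BCR partners. No partner gene passed in the comparisons other than the pooled one and zQ175 minus WT.

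**Figure D5:**
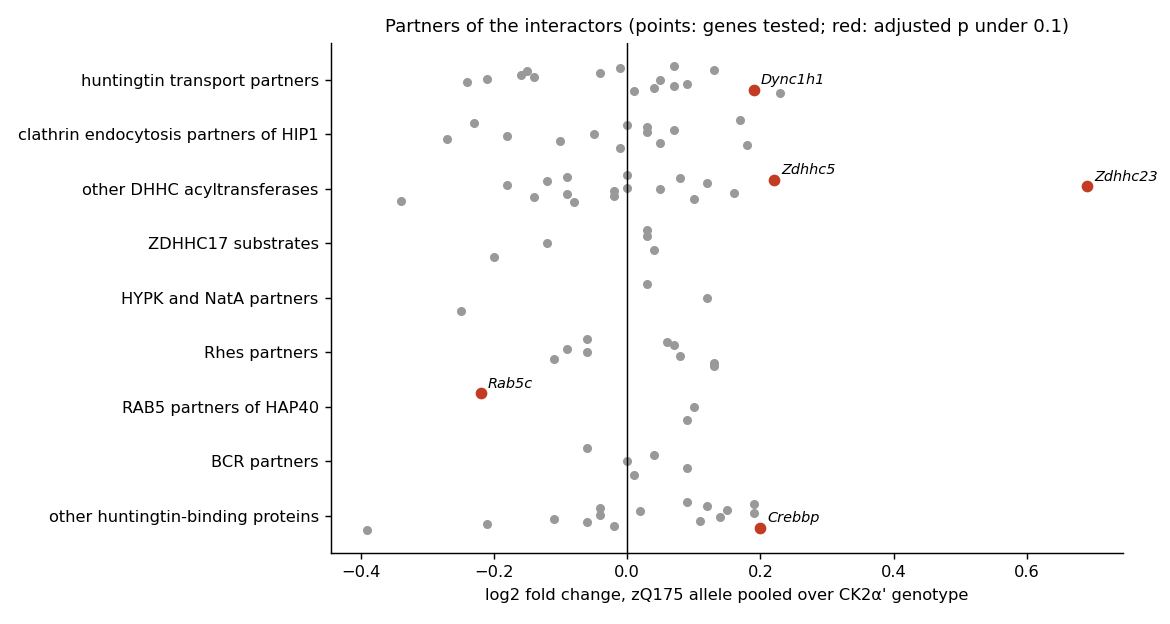
Log2 fold change for the zQ175 allele, pooled over CK2α' genotype, of the 88 tested genes of the 9 partner lists, 1 point per gene. The red points passed an adjusted p of 0.1 over all genes tested, with Zdhhc23 at 0.69 the farthest from 0.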

How the data were processed

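Striatal RNA of 18 mice was sequenced from stranded total RNA libraries (2x50 bases), 1 per mouse. Per the labels and the study's methods, the authors used Trimmomatic for trimming and HISAT2 2.1.0 for alignment to GRCm38, discarded duplicated, unmapped and poorly mapping reads, and deposited the raw, unnormalized count of reads on each gene from Subread 1.6.2. The annotation release and strand setting of the counting are not given in the sources used here. The deposited exon lengths are other values, in bases, and were used for TPM. Column names gave the genotype as a short form and the replicate number, by which they were matched to the labels. Symbols came from a RefSeq and GENCODE gene table, which named 55154 of 55421 genes.

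Counts were tested in R 4.3.3 with edgeR 4.0.16 (filterByExpr, TMM, quasi-likelihood test, 1 fit to the 18 libraries by genotype alone, Benjamini-Hochberg adjusted p under 0.1 over 20914 genes), rather than with the study's DESeq2, which was run as an alternative (DESeq2 1.42.0). The scripts were tested on simulated data. CPM is TMM-scaled, and log2 CPM used a prior count of 2. The pooled zQ175 effect is the mean of zQ175 minus WT and zQ175:CK2α'(+/-) minus CK2α'(+/-). Exact two-sided permutation tests of single members are unadjusted. The 7 comparisons share groups, so their values are not independent. Correlations of log2 levels are Pearson's unless named.

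The members, partner lists and marker lists were chosen with earlier results of these data known. Named were all members, Csnk2a2, the genes of each partner list that passed (or the one with the smallest p), and the 3 genes most like Htt, Rasd2 and Bcr. Alternatives were DESeq2, edgeR with DESeq2's size factors, without a filter or with only the groups compared, a replicate block, Xist as covariate, a threshold of 0.05 and leaving out each mouse. The marker covariate, the fit without zQ175 mice 1, 3 and 5, the alternatives for partner genes and the test by CK2α' allele were added after seeing the data. The labels give neither sex nor batch per mouse, and Xist and Y-linked levels gave 4 female of 5 WT, 2 of 5 zQ175, 1 of 3 CK2α'(+/-) and 4 of 5 zQ175:CK2α'(+/-) mice if the mouse with both is counted as male.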

Additional observations from a re-analysis of the deposited data

Results flagged for a closer look

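Bcr in zQ175 mouse 1 stood apart from the other zQ175 mice. It was at 7.56 log2 CPM (189 CPM), and the nearest of the others was at 7.95, a gap of 0.71 of the group's range. It was 1 of 30 group values examined in this way, and chance flags about 1 in 20. This mouse also had the lowest summed projection neuron markers (1809 CPM) and the highest thalamic markers (861 CPM), and their part in the Bcr value was not tested. Without it the pooled log2 fold change of Bcr was -0.41 (edgeR adjusted p = 0.0223).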

How the results depend on the processing

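The number of the 10 members that passed, with the share of all genes in brackets, was 0 (1.1%) between zQ175 and WT mice, 1 (5.26%) with DESeq2, 2 (1.2%) without a filter on low counts and 0 to 1 (0% to 2.82%) without single mice (Bcr -0.55, edgeR adjusted p = 0.0677, without WT replicate 5). Between zQ175:CK2α'(+/-) and CK2α'(+/-) mice it was 0 (0.593%), 1 (1.47%) with DESeq2, 2 (0.79%) without a filter, 3 (2.43%) with only the groups compared and 0 to 3 (0.0276% to 1.06%) without single mice (Htt, Rasd2 and Bcr without WT replicate 2). Pooled it was 2 (4.9%), 3 (8.92%) with DESeq2, 0 (2.12%) with the marker covariate, 0 (1.86%) without zQ175 mice 1, 3 and 5, and 1 to 3 (1.6% to 5.57%) without single mice (1 without CK2α'(+/-) replicate 3). Between CK2α'(+/-) and WT mice it was 0 (0.0143%), and 1 (0.0506%) without a filter (Hap1, edgeR adjusted p = 0.0537). Member tests without overlap numbered 4 (2.45%), and 4 to 9 without single mice (9, with 4.21%, leaving out WT replicate 2), and 8 to 10 members kept their place in the order of levels. DESeq2's size factors, Xist as covariate and a threshold of 0.05 left the numbers of members that passed as reported.

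The log2 fold change turned its sign for several members, among them Rasd2, which had been -0.51 between zQ175 and WT mice, -0.57 pooled and 0.21 between zQ175:CK2α'(+/-) and zQ175 mice. Between zQ175 and WT mice, leaving out single mice gave -0.11 to 0.02 for Htt, -0.31 to 0.03 for Hap1, -0.02 to 0.07 for Zdhhc17 and -0.04 to 0.24 for Hypk, and pooled it gave -0.04 to 0.15 for Hap1. The marker covariate gave 0.04 for Htt, 0.01 for Hip1, 0.13 for Zdhhc13 and 0.06 for Rasd2 between zQ175 and WT mice, -0.01 for Hip1r, 0.06 for Zdhhc17, 0.12 for Zdhhc13 and 0.02 for Rasd2 pooled, and -0.02 for Rasd2 and -0.07 for Bcr between zQ175:CK2α'(+/-) and zQ175 mice. Without zQ175 mice 1, 3 and 5, Zdhhc13 had 0.00 between zQ175 and WT mice, Hap1 -0.03 and Zdhhc17 0.02 pooled, and Rasd2 -0.02 and Bcr -0.02 between zQ175:CK2α'(+/-) and zQ175 mice. The marker covariate takes up what Rasd2 and Bcr share with the markers by its construction, and the cause of other turns was not tested.

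Of 88 partner genes, with the same shares over all genes, 2 (1.1%) passed between zQ175 and WT mice, 9 (5.26%) with DESeq2, 0 (0%) with only the groups compared, 0 (0.469%) with the replicate block, 1 (0.77%) with Xist as covariate, 1 (0.349%) with the marker covariate, 0 (0%) without zQ175 mice 1, 3 and 5, and 0 to 4 (0% to 2.82%) without single mice (0 without WT replicates 1, 3 or 5 or zQ175 replicate 5, 4 without WT replicate 2). Pooled 5 (4.9%) passed, 12 (8.92%) with DESeq2, 1 (2.65%) without a filter, 3 (2.48%) with the block, 3 (2.12%) with the marker covariate, 1 (1.86%) without zQ175 mice 1, 3 and 5, and 0 to 7 (1.6% to 5.57%) without single mice (0 without CK2α'(+/-) replicate 3, 7 without WT replicate 2).

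Same-numbered mice of different genotypes did not deviate together (24 pairs, correlations -0.136 to 0.12, and 1 of 18 mice closest to its own number), so the numbers do not pair them. With the replicate number as a block the pooled values were -0.54 for Rasd2 (edgeR adjusted p = 0.0811) and -0.41 for Bcr (edgeR adjusted p = 0.0727), and the members that passed were as reported. Over all genes, the block gave 98 calls in place of 230 between zQ175 and WT mice, 12 in place of 124 between zQ175:CK2α'(+/-) and CK2α'(+/-) mice, 519 in place of 1024 pooled, and 1 in place of 3 in each of the other 3 comparisons of 2 groups. Between zQ175 and WT mice DESeq2 made 855 calls, no filter 451, the marker covariate 73, and the groups alone and the fit without zQ175 mice 1, 3 and 5 made 0 (2337 and 1852 at an unadjusted p under 0.05). Between zQ175:CK2α'(+/-) and CK2α'(+/-) mice the calls were 322 with DESeq2, 297 without a filter, 461 with the groups alone and 75 with Xist as covariate. Pooled they were 443 with the marker covariate and 401 without zQ175 mice 1, 3 and 5. Against 3 calls between zQ175:CK2α'(+/-) and WT mice there were 123 with DESeq2, 85 without a filter, 1 with the groups alone and 23 with the marker covariate. Against 3 between zQ175:CK2α'(+/-) and zQ175 mice there were 39, 51, 2 and 6, and against 3 between CK2α'(+/-) and WT mice 11, 19, 0 (730 at an unadjusted p under 0.05) and 2. The interaction had 1 call, 19 with DESeq2, 10 without a filter, and 0 with Xist as covariate or without zQ175 mice 1, 3 and 5 (956 and 970 at an unadjusted p under 0.05).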
